A study of Homo sapiens with 27 samples.

Results

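Translation initiation factors are described here as the genes whose platform symbol starts with EIF followed by a digit from 1 to 6. Only probe sets annotated to a single gene were taken, and for each gene the brightest of them over all 27 arrays stood for the gene. The rule gave 167 probe sets of 51 genes, among 18132 genes on the array. Of these, 48 genes reached the median signal of the array on at least 3 of the 27 arrays and were tested, beside 12386 genes tested in all. EIF4E1B, EIF5AL1 and EIF1AY did not pass that filter, and EIF1AY, on the Y chromosome, is counted and not described.

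The arrays were one-colour expression arrays of 3 human cancer cell lines, with 3 biological replicates in each of 9 groups. EBC-1, a non-small cell lung cancer line, and MKN-45, a gastric cancer line, are given by the study as addicted to MET, a receptor tyrosine kinase. HCC827, another non-small cell lung cancer line, is given as a negative control with activated MET that it does not depend on. In each line the groups were SGX-523, which selectively blocks the kinase activity of MET, given at 1 uM for 24 h or for 48 h, and DMSO, the solvent. No time is given for the DMSO arrays, so both times of a line were compared with the same 3 DMSO arrays, and each line is a single model of its kind. The comparison asks how the initiation machinery changed when MET was inhibited, and whether the line that does not depend on MET changed likewise.

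Initiation is the step at which the small ribosomal subunit finds the start codon of an mRNA. EIF2, loaded with GTP, brings the initiator methionyl-tRNA, and EIF2B reloads EIF2 with GTP after each round. Under stress the EIF2AK kinases phosphorylate the alpha subunit of EIF2, which blocks EIF2B. EIF4E binds the mRNA cap, EIF4G bridges it to the ribosome through EIF3, and the EIF4A helicase with EIF4B or EIF4H unwinds the 5′ leader. The EIF4EBP repressors hold EIF4E away from EIF4G until mTORC1, a kinase complex downstream of growth factor receptors, phosphorylates them. EIF1 and EIF1A guide start codon choice, EIF5 and EIF5B act at the joining of the large subunit, and EIF5A, carrying the modified residue hypusine, keeps peptide synthesis going through difficult stretches. MYC is known to activate several of these genes through the E-box letters CACGTG in their promoters.

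Epithelial keratins and EPCAM lay above the array median on all arrays, while CDH1 lay below it on all 9 EBC-1 arrays. The squamous marker KRT5 lay below the median on all EBC-1 arrays, which carried the intestinal marker CDH17 at 11.3 to 12.5 and GPA33 at 6.42 to 8.86, while CDX1, TFF1 and TFF3 of the same list lay below the median on all of them. NAPSA of lung adenocarcinoma was at 9.33 to 10.02 in HCC827. The fibroblast markers COL1A1, COL1A2, COL3A1 and DCN and the leukocyte markers PTPRC and CD3E lay below the median on all arrays. Of the other leukocyte markers, CD79A lay near the median and reached it on 2 EBC-1, 2 MKN-45 and 5 HCC827 arrays, and LYZ lay at 11.4 to 11.7 in MKN-45 and at 3.80 to 6.11 in EBC-1, where 6 arrays reached the median. Array medians ran from 5.02 to 5.14 in EBC-1 and MKN-45 and from 5.71 to 5.73 in HCC827, and the HCC827 arrays share fewer identical values with the others than the others do among themselves (a median of 163 against 1056), so that they may have been normalized apart. Levels of HCC827 are therefore not tested against those of the other lines. Among the members, replicate 3 of HCC827 SGX-523 24 h stood apart, with a residual SD of 0.31 against at most 0.091 on arrays outside its group. The ACTB 3′ to 5′ probe ratio, a sign of RNA integrity, also moved with treatment: its log2 mean was 3.76 at 24 h and 3.89 at 48 h, against 3.36 with DMSO, in EBC-1. It was 3.68 and 4.16, against 3.53 with DMSO, in MKN-45, and 2.65 and 2.33, against 2.08 with DMSO, in HCC827. That of GAPDH ran from 0.34 to 0.38 with DMSO, 0.38 to 0.39 at 24 h and 0.43 to 0.47 at 48 h in EBC-1. In the same order the GAPDH ranges were 0.29 to 0.39, 0.34 to 0.46 and 0.51 to 0.65 in MKN-45. In HCC827 they were 0.12 to 0.16, 0.15 to 0.18 and 0.11 to 0.15. The median of the 62 external control probe sets moved too. At 24 h and 48 h it averaged 6.50 and 6.46 in EBC-1, against 6.01 with DMSO. It averaged 6.57 and 6.31 in MKN-45, against 6.13 with DMSO, and 5.67 and 5.60 in HCC827, against 5.82 with DMSO. The part of these ratios and controls in the results below was not tested. On bulk RNA, fewer cells carrying a transcript and less of it per cell cannot be told apart.

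Most initiation factors were lower after SGX-523 in EBC-1, and in MKN-45 more of them were lower than higher. In EBC-1 at 24 h, 28 of the 48 members were called lower and 11 higher (limma, Benjamini-Hochberg adjusted p at or under 0.05 over all genes), against 28.1% of all genes lower and 31.2% higher. At 48 h, 27 were lower and 8 higher, against 28.9% and 32.8% of all genes. The median member difference from DMSO was -0.28 and -0.34 on the log2 scale, beside 0.036 and 0.067 over all genes tested. In MKN-45, 22 were lower and 14 higher at 24 h, against 26.9% and 33.4% of all genes, and 20 were lower and 9 higher at 48 h, against 26.2% and 36.4%. The median was -0.085 and -0.11 there, beside 0.051 and 0.056 over all genes. Changes of at least 2-fold were fewer. There were 7 lower and 2 higher in EBC-1 at 24 h (8.16% and 7.71% of all genes) and also at 48 h (8.91% and 8.27%). MKN-45 had 4 lower and 0 higher at 24 h (7.11% and 8.16%) and 3 lower and 1 higher at 48 h (7.1% and 10.2%). The precision of these values is limited by the number of arrays, and the median standard error of a member's difference from DMSO was 0.079.

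Both MET-addicted lines shared a core of falling members. Called lower in both lines at both times were 17 members, namely EIF1AX, EIF2AK2, EIF2B3, EIF2B5, EIF2S1, EIF2S2, EIF3B, EIF3I, EIF3J, EIF4A3, EIF4E, EIF4EBP1, EIF4G1, EIF4H, EIF5, EIF5A and EIF6, where 15.3% of all genes were. Called higher in both at both times were 5, namely EIF1, EIF1B, EIF3F, EIF3L and EIF4A2, where 17.9% of all genes were. The times of a line share their DMSO arrays, so a call at one time is no independent repeat of the other. Each call is that of the brightest probe set, and other probe sets of some members, given below, were not called or went the other way.

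**Figure D1:**
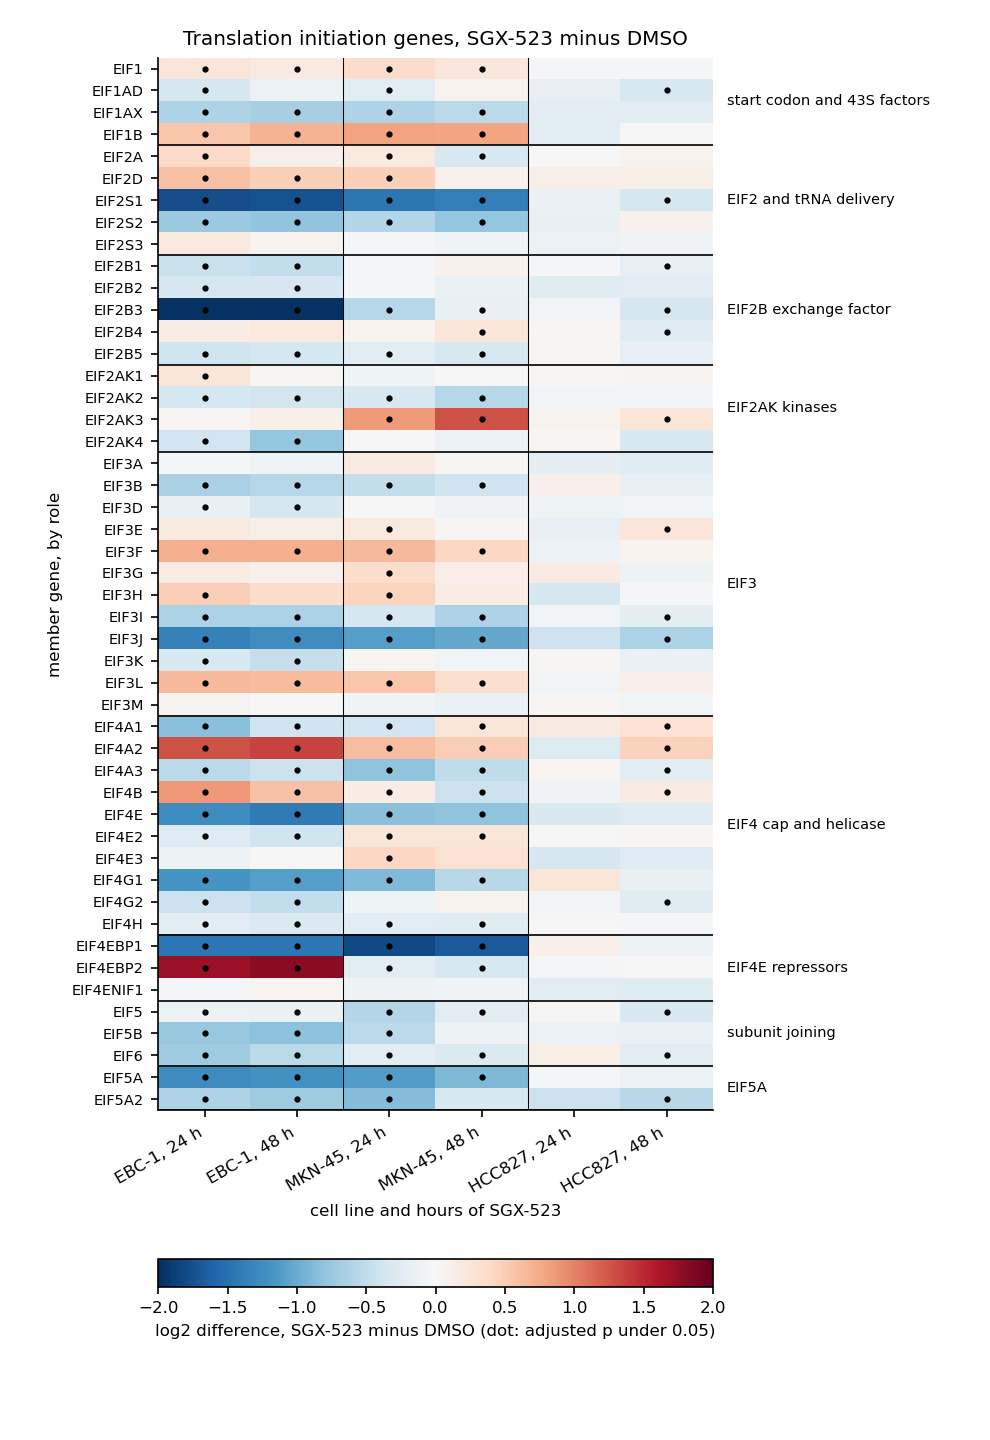
Log2 difference from DMSO of each of the 48 tested members (rows, grouped by role) in EBC-1, MKN-45 and HCC827 at 24 h and 48 h of SGX-523 (columns), with a mark in each cell that was called. The EIF2S1, EIF4E and EIF5A cells are blue (lower) in EBC-1 and MKN-45, EIF4EBP2 is red (higher) in EBC-1 only among the called cells, and the HCC827 24 h column has no mark.

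E-box letters stood in the promoters of several of these members, and their windows are shown because the members that fell and those that rose can be read side by side. RefSeq promoter windows of 250 bases before to 50 after the start (GRCh38.p14) were at hand for 40 of the 48 tested members, and CACGTG, which reads the same on both strands, was in 11 of them (27.5%). It was in 12.3% of the windows of all tested genes, 10.9% of those of all protein-coding genes and 7.26% of all windows in the table. Of the members called lower in both lines at both times, 6 of 15 with a window held it, and of those called higher, 2 of 4 did. A match is a description of the letters, not a binding site. The sequences below run 5′ to 3′ on the strand of the gene, with CACGTG in capitals. The first 4 belong to members that fell and the last pair to members that rose.
EIF4E (chr4:98929326-98929383, minus strand, motif at base -225 from the start): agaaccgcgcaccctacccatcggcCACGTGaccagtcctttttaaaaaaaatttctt
EIF2B3 (chr1:44986742-44986801, minus strand, motif at base -179): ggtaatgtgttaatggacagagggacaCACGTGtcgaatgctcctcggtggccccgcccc
EIF4G1 (chr3:184314435-184314494, plus strand, motif at base -144): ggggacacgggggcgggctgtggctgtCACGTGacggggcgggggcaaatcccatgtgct
EIF4A3 (chr17:80147217-80147276, minus strand, motif at base -121): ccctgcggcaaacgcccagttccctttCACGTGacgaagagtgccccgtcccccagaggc
EIF1B (chr3:40309626-40309685, plus strand, motif at base -54): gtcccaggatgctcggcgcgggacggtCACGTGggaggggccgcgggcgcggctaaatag
EIF3F (chr11:7987242-7987301, plus strand, motif at base -68): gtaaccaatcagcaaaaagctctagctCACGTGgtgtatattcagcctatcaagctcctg

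The main parts of the cap-binding complex were lower in both addicted lines. EIF4E, the cap-binding protein whose promoter is printed above, had 8.43, 8.59 and 8.39 log2 units in EBC-1 at 24 h and 8.08, 8.37 and 8.47 at 48 h, against 9.71, 9.67 and 9.80 with DMSO. In MKN-45, EIF4E had 8.41, 8.27 and 8.37 at 24 h and 8.34, 8.36 and 8.41 at 48 h, against 9.19, 9.14 and 9.21 with DMSO. No treated array reached the lowest DMSO array in either line. The difference was -1.26 (SE 0.14, adjusted p 2.1e-08) and -1.42 (SE 0.14, adjusted p 2.3e-09) in EBC-1, or 0.418 and 0.373 times DMSO. It was -0.83 (SE 0.14, adjusted p 1.3e-05) and -0.81 (SE 0.14, adjusted p 1.6e-05) in MKN-45. EIF4E was lower on all 4 of its probe sets in each of these comparisons.

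EIF4G1, the main scaffold between cap and ribosome, had 7.88, 7.89 and 7.98 in EBC-1 at 24 h and 7.91, 8.12 and 7.94 at 48 h, against 9.02, 9.14 and 9.12 with DMSO. In MKN-45 EIF4G1 had 7.86, 7.84 and 7.82 at 24 h and 8.13, 8.33 and 8.04 at 48 h, against 8.77, 8.74 and 8.67 with DMSO. The treated arrays lay below the DMSO arrays throughout, by 1.18 and 1.10 in EBC-1 (adjusted p 2.1e-07 and 5.5e-07) and by 0.89 and 0.56 in MKN-45 (adjusted p 1.5e-05 and 0.0021). EIF4G2, a relative that lacks the EIF4E-binding stretch and works without the cap, fell by 0.42 and 0.48 in EBC-1. In MKN-45 it was not called on its brightest probe set (-0.088 and 0.073), while a dimmer one was called lower at 24 h (-0.31). Among the helicase cofactors, EIF4H fell by 0.21 to 0.29 in all 4 comparisons. EIF4A3, a helicase of the exon junction complex rather than of initiation, fell by 0.54 and 0.43 in EBC-1 and by 0.80 and 0.51 in MKN-45.

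The helicase paralogs parted in EBC-1 and, on their brightest probe sets only, at 24 h in MKN-45. EIF4A2, which shares its role with EIF4A1, had 12.73, 12.68 and 12.67 in EBC-1 at 24 h and 12.74, 12.76 and 12.79 at 48 h, against 11.35, 11.42 and 11.48 with DMSO. In MKN-45 EIF4A2 had 12.47, 12.51 and 12.53 at 24 h and 12.44, 12.40 and 12.32 at 48 h, against 11.80, 11.90 and 11.97 with DMSO. All treated arrays lay above all DMSO arrays, by 1.28 and 1.35 in EBC-1 (SE 0.15, adjusted p 6.9e-08 and 2.5e-08) and by 0.61 and 0.50 in MKN-45 (SE 0.15, adjusted p 0.0011 and 0.0063). The 3 probe sets of EIF4A2 rose together in EBC-1, whereas in MKN-45 at 48 h the other pair was lower, down to -0.30, and the mean of the 3 was -0.0040 (adjusted p 0.99). At 24 h in MKN-45 that mean was 0.37 (adjusted p 0.19), so the MKN-45 calls of EIF4A2 rest on its brightest probe set. Dimmer probe sets that EIF4A2 shares with SNORA63 or SNORA4 were outside the member rule. In EBC-1 all of them were called higher. In MKN-45 all of them lay below 0, and the SNORA63 probe set with a mean of 6.44 was called lower (-0.57 and -0.69).

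EIF4A1, the more abundant helicase in most cells, was read by dim single-gene probe sets, and its brightest had 5.65, 5.42 and 5.75 in EBC-1 at 24 h and 6.13, 6.05 and 5.94 at 48 h, against 6.39, 6.49 and 6.45 with DMSO. That is a fall of 0.84 and 0.40 in EBC-1 (adjusted p 3.3e-08 and 6.7e-04). In MKN-45 EIF4A1 had 6.50, 6.73 and 6.32 at 24 h, below the DMSO arrays at 6.96, 6.87 and 6.89 (-0.39, adjusted p 0.0011). At 48 h EIF4A1 had 7.17, 7.20 and 7.08, above them (0.25, adjusted p 0.027). This call was lost under quantile normalization (0.19, adjusted p 0.11), with the mean of all its probe sets (0.12, adjusted p 0.11), and without MKN-45 DMSO replicate 2 or 3 or SGX-523 48 h replicate 1 or 2 (0.064 to 0.082). A far brighter probe set annotated to both EIF4A1 and the readthrough gene SENP3-EIF4A1, with a mean of 12.9, was outside the member rule. On it the difference was -1.03 and -1.14 in EBC-1 and -0.24 and -0.36 in MKN-45, with adjusted p of at most 2.0e-07. It was 0.072 and 0.0027 in HCC827 and not called. The single-gene and the brighter probe set thus went opposite ways in MKN-45 at 48 h.

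**Figure D2:**
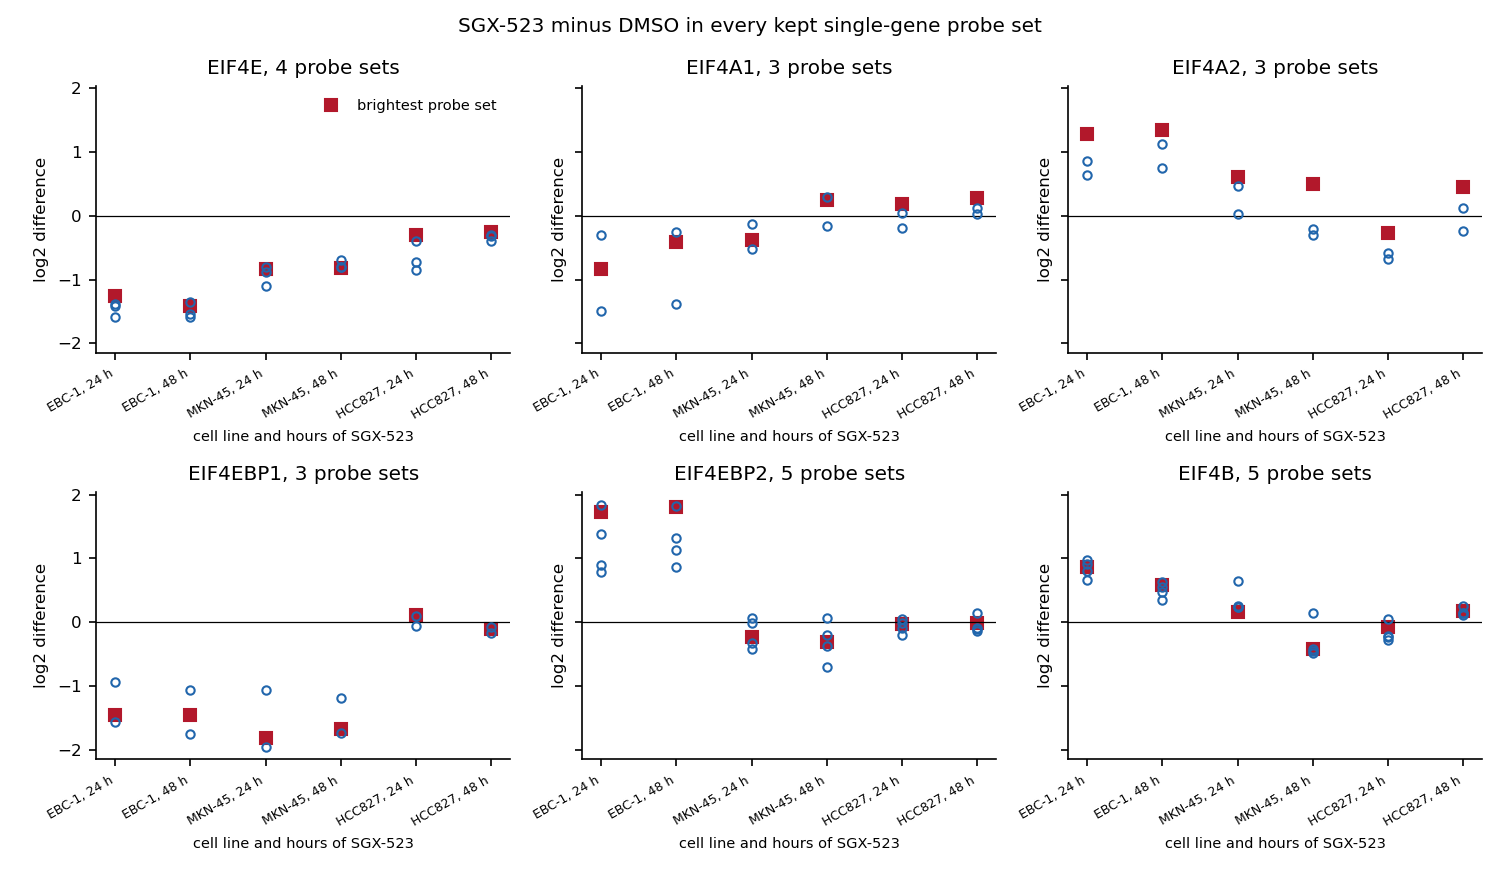
Log2 difference from DMSO (vertical axis) of every kept single-gene probe set of EIF4E, EIF4A1, EIF4A2, EIF4EBP1, EIF4EBP2 and EIF4B in each cell line and time of SGX-523 (horizontal axis), with a filled square for the brightest probe set and open circles for the others. All probe sets of EIF4E lie below 0, while those of EIF4A1 and EIF4A2 in MKN-45 at 48 h lie on both sides.

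EIF4B, the cofactor that stimulates the helicase, had 10.67, 10.71 and 10.63 in EBC-1 at 24 h and 10.35, 10.39 and 10.40 at 48 h, against 9.79, 9.78 and 9.81 with DMSO. In MKN-45 EIF4B had 10.94, 10.99 and 10.90 at 24 h and 10.43, 10.45 and 10.22 at 48 h, against 10.75, 10.81 and 10.81 with DMSO. It was thus above DMSO on every treated EBC-1 array (0.87 and 0.59, adjusted p 1.1e-13 and 1.8e-10), slightly above at 24 h in MKN-45 (0.15, adjusted p 0.0099) and below at 48 h (-0.42, adjusted p 5.7e-08). The difference between the responses of EBC-1 and MKN-45 in EIF4B at 48 h was 1.01 (SE 0.071, adjusted p 1.5e-11). The probe sets of EIF4B disagreed in MKN-45 at 48 h. The next brightest (mean 9.96 against 10.43) was at 0.15 there, not called, while dimmer ones were called lower, down to -0.48. At 24 h in MKN-45 that next brightest probe set was called higher, by 0.64. The small 24 h rise in MKN-45 lost its call with each array centred on its median (adjusted p 0.091) and without SGX-523 24 h replicate 2 (0.051). EIF4E2, a cap-binding relative of EIF4E that represses rather than recruits, fell by 0.26 and 0.40 in EBC-1 and rose by 0.24 and 0.24 in MKN-45. EIF4E3, another relative, had EBC-1 arrays at 2.49 to 3.05, below the array median, and MKN-45 arrays at 7.74 to 8.38, with a rise of 0.41 in MKN-45 at 24 h (adjusted p 0.039).

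Among the EIF4E repressors, EIF4EBP1 fell in both addicted lines. EIF4EBP2 rose in EBC-1 and, on its brightest probe set, fell slightly in MKN-45. EIF4EBP1, the best known mTORC1 target among them, had 7.75, 7.92 and 7.83 in EBC-1 at 24 h and 7.87, 7.79 and 7.83 at 48 h, against 9.29, 9.34 and 9.22 with DMSO. In MKN-45 EIF4EBP1 had 6.58, 6.98 and 6.73 at 24 h and 6.82, 6.997 and 6.86 at 48 h, against 8.56, 8.64 and 8.50 with DMSO. All treated arrays lay at least a full log2 unit below the DMSO arrays. The fall was to 0.366 times DMSO at both times in EBC-1 (-1.45, SE 0.11, adjusted p 2.9e-11 and 2.4e-11). In MKN-45 it was to 0.286 and 0.313 times DMSO (-1.81 and -1.67, SE 0.11, adjusted p 4.7e-13 and 1.7e-12).

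EIF4EBP2, a second repressor of the same kind, had 9.65, 9.67 and 9.64 in EBC-1 at 24 h and 9.77, 9.71 and 9.72 at 48 h, against 7.88, 7.94 and 7.98 with DMSO. That was 3.30 and 3.49 times DMSO (1.72 and 1.80, SE 0.067, adjusted p 5.3e-17 and 1.7e-17), and all 5 of its probe sets were higher. In MKN-45 EIF4EBP2 had 8.51, 8.49 and 8.49 at 24 h and 8.50, 8.40 and 8.34 at 48 h, against 8.70, 8.75 and 8.74 with DMSO. It was slightly lower on every treated MKN-45 array (-0.23 and -0.32, adjusted p 0.0040 and 2.2e-04). The probe sets of EIF4EBP2 disagreed in MKN-45. One almost as bright (mean 8.40 against 8.61) was not called there (-0.0055 and 0.071), while others were called lower, down to -0.42 and -0.70. The responses of EBC-1 and MKN-45 differed by 1.96 and 2.12 (SE 0.095, adjusted p 3.0e-14 and 4.5e-15). With DMSO alone, EIF4EBP2 averaged 7.93 in EBC-1 and 8.73 in MKN-45, so that the treated EBC-1 arrays ended above all MKN-45 arrays. EIF4EBP3 had no single-gene probe set, and the one it shares with the readthrough gene ANKHD1-EIF4EBP3 rose by 0.96 and 0.92 in EBC-1 and by 0.52 and 0.64 in MKN-45. EIF4ENIF1, which carries EIF4E to the nucleus and to mRNA decay bodies, was not called in either line.

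**Figure D3:**
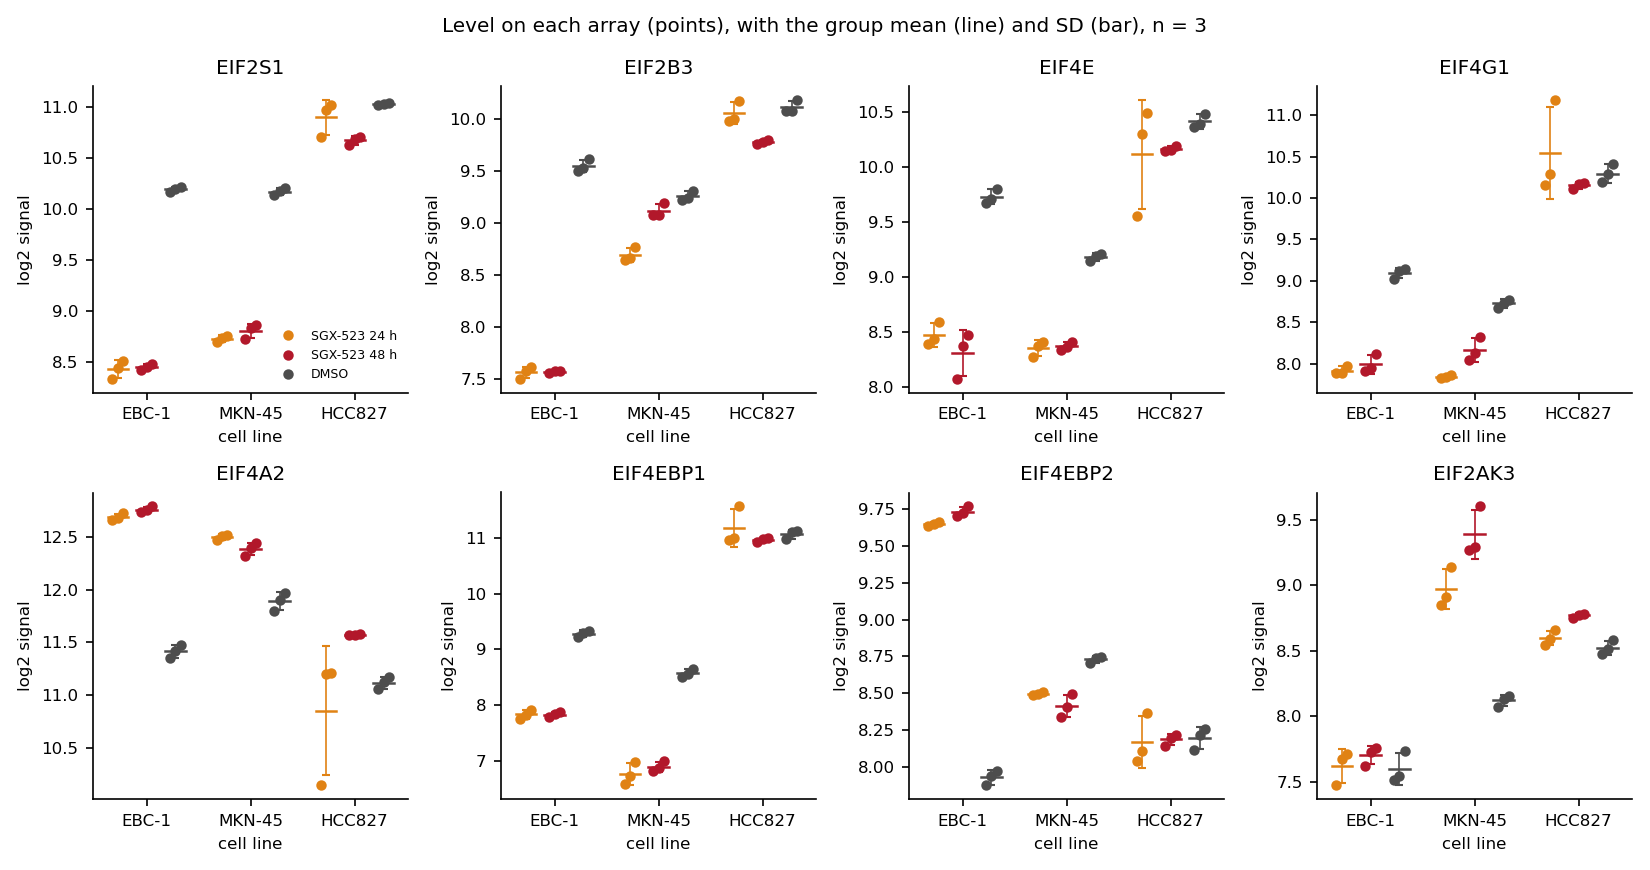
Deposited log2 signal of selected members on each array, with SGX-523 24 h, SGX-523 48 h and DMSO from left to right within each cell line, points for arrays in order of value, a horizontal line for the group mean and a bar for the SD (n = 3). EIF4EBP2 stands at 9.64 to 9.77 on treated EBC-1 arrays and at 7.88 to 7.98 with DMSO, EIF2AK3 is raised in MKN-45, and 1 HCC827 array at 24 h lies away from its pair for several members.

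EIF2 itself was lower in its alpha and beta subunits, while the probe sets of its gamma subunit disagreed. EIF2S1, the alpha subunit and the site of the stress phosphorylation, had 8.33, 8.43 and 8.50 in EBC-1 at 24 h and 8.45, 8.47 and 8.42 at 48 h, against 10.20, 10.21 and 10.17 with DMSO. In MKN-45 EIF2S1 had 8.73, 8.75 and 8.69 at 24 h and 8.85, 8.83 and 8.72 at 48 h, against 10.13, 10.17 and 10.20 with DMSO. The groups were far from overlapping, at 0.294 and 0.298 times DMSO in EBC-1 (-1.77 and -1.74, SE 0.063, adjusted p 9.1e-18 and 8.7e-18) and 0.368 and 0.388 times in MKN-45 (-1.44 and -1.37, SE 0.063, adjusted p 5.5e-16 and 1.3e-15). All 5 probe sets of EIF2S1 were lower in each comparison. EIF2S2, the beta subunit, fell by 0.75 and 0.80 in EBC-1 and by 0.58 and 0.77 in MKN-45. EIF2S3, the gamma subunit that binds GTP and the tRNA, was not called in either line on its brightest probe set (0.19 and 0.068 in EBC-1, -0.032 and -0.081 in MKN-45). Its other 3 probe sets were all called lower in MKN-45 at 48 h (-0.66 to -0.39), and some of them were called higher in EBC-1, by 0.34 and 0.37 at 24 h and by 0.15 and 0.20 at 48 h. EIF2D, which can deliver tRNA without GTP, rose by 0.59 and 0.48 in EBC-1 and by 0.48 in MKN-45 at 24 h. EIF2A, an alternative tRNA carrier, rose by 0.39 in EBC-1 and 0.19 in MKN-45 at 24 h, and in MKN-45 at 48 h fell by 0.30.

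Among the EIF2B subunits the gamma subunit EIF2B3, part of its catalytic core, stood out in EBC-1. EIF2B3 had 7.61, 7.51 and 7.58 in EBC-1 at 24 h and 7.58, 7.56 and 7.58 at 48 h, against 9.53, 9.62 and 9.50 with DMSO. In MKN-45 EIF2B3 had 8.67, 8.77 and 8.64 at 24 h and 9.19, 9.08 and 9.08 at 48 h, against 9.22, 9.31 and 9.24 with DMSO. The fall was to 0.253 and 0.254 times DMSO in EBC-1 (-1.98 at both times, SE 0.059, adjusted p 2.7e-19 and 2.1e-19), the largest of any tested member in that line. In MKN-45 the fall was 0.56 at 24 h (adjusted p 8.2e-09), and the 48 h difference of -0.14 passed narrowly (adjusted p 0.039). The 48 h call was lost with no low-signal filter (adjusted p 0.056) and without MKN-45 DMSO replicate 2 or 3 or SGX-523 48 h replicate 2 or 3 (0.062 to 0.14). EIF2B3 was read by a single probe set. Of the other subunits, EIF2B1, EIF2B2 and EIF2B5 fell by 0.34 to 0.48 in EBC-1 at both times, and EIF2B4 was not called there (0.15 and 0.19). In MKN-45 only EIF2B5 of these fell on its brightest probe set, by 0.23 and 0.32, and EIF2B4 rose by 0.24 at 48 h. Dimmer probe sets were called lower in MKN-45 for EIF2B1 at 24 h (-0.41) and EIF2B2 at 48 h (-0.26). The dimmer probe set of EIF2B4 was called higher in EBC-1 at 24 h (0.20) and was not called in MKN-45 at 48 h (0.12).

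The EIF2AK kinases, which phosphorylate EIF2S1, each behaved in their own way. EIF2AK3, also known as PERK, the sensor of unfolded protein in the endoplasmic reticulum, had 9.14, 8.91 and 8.85 in MKN-45 at 24 h and 9.29, 9.27 and 9.60 at 48 h, against 8.13, 8.07 and 8.16 with DMSO. That was 1.80 and 2.41 times DMSO (0.85 and 1.27, SE 0.088, adjusted p 6.9e-09 and 3.9e-12), with no overlap of the arrays. In EBC-1 EIF2AK3 had 7.47, 7.67 and 7.71 at 24 h and 7.73, 7.75 and 7.62 at 48 h, against 7.51, 7.54 and 7.74 with DMSO, and the arrays overlapped (0.024 and 0.11, adjusted p 0.84 and 0.31). The responses of EBC-1 and MKN-45 differed by -0.82 and -1.16 (SE 0.12, adjusted p 6.7e-06 and 2.6e-08).

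EIF2AK4, also known as GCN2, the sensor of uncharged tRNA, took the other course. EIF2AK4 had 7.24, 7.37 and 7.53 in EBC-1 at 24 h and 7.05, 6.82 and 7.11 at 48 h, against 7.86, 7.66 and 7.76 with DMSO (-0.38 and -0.77, adjusted p 0.0060 and 2.4e-06). In MKN-45 EIF2AK4 had 8.19, 8.07 and 7.60 at 24 h and 7.73, 7.81 and 7.98 at 48 h, which overlapped the DMSO arrays at 8.07, 7.94 and 7.89. EIF2AK2, also known as PKR, the sensor of double-stranded RNA, had 7.93, 7.94 and 7.98 in EBC-1 at 24 h and 7.87, 7.96 and 7.98 at 48 h, against 8.23, 8.28 and 8.40 with DMSO. It was lower on all treated arrays of EBC-1 (-0.36 and -0.37, adjusted p 0.0011 and 7.8e-04). A second probe set of EIF2AK2, with a mean of 7.95 against 8.08, was not called in EBC-1 (-0.10 and -0.14). It was called lower in MKN-45 (-0.57 and -0.50). In MKN-45 EIF2AK2 had 7.01, 6.93 and 6.98 at 24 h and 6.79, 6.76 and 6.60 at 48 h, against 7.25, 7.28 and 7.34 with DMSO (-0.32 and -0.57, adjusted p 0.0033 and 3.8e-06). EIF2AK1, the haem-regulated kinase, was at 11.65, 11.57 and 11.60 in EBC-1 at 24 h, against 11.38, 11.37 and 11.36 with DMSO (0.24, adjusted p 1.3e-05). At 48 h in EBC-1 it had 11.35, 11.38 and 11.44, which overlapped DMSO (0.023, adjusted p 0.66). In MKN-45 it had 11.21, 11.18 and 11.23 at 24 h and 11.23, 11.27 and 11.33 at 48 h, against 11.31, 11.27 and 11.29 with DMSO, and was not called (adjusted p 0.083 and 0.77). Over the 8 probe sets of EIF2AK1 the mean at 24 h was 0.074 in EBC-1 (adjusted p 0.34) and -0.18 in MKN-45 (adjusted p 0.015). In MKN-45 at 24 h EIF2AK1 was also called lower with each array centred on its median (-0.13, adjusted p 0.0077), and at -0.082 once the HCC827 array that stood apart was left out (adjusted p 0.032).

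EIF3, the large complex that scaffolds the small subunit, was split. Of its 12 tested members, 5 were lower and 3 higher in EBC-1 at 24 h, and 3 were lower and 5 higher in MKN-45 at 24 h, with medians of 0.0064 and 0.11. At 48 h the counts were 5 and 2 in EBC-1 and 3 and 2 in MKN-45. As shares these are 41.7% lower and 25% higher in EBC-1 at 24 h, against 28.1% and 31.2% of all genes, and 25% and 41.7% in MKN-45 at 24 h, against 26.9% and 33.4%. At 48 h they are 41.7% and 16.7% in EBC-1, against 28.9% and 32.8% of all genes, and 25% and 16.7% in MKN-45, against 26.2% and 36.4%. EIF3J, a loosely bound subunit at the mRNA channel, had 7.87, 7.90 and 7.94 in EBC-1 at 24 h and 7.86, 7.92 and 8.25 at 48 h, against 9.27, 9.21 and 9.27 with DMSO (-1.35 and -1.24, adjusted p 1.4e-08 and 5.4e-08). In MKN-45 EIF3J had 7.54, 7.61 and 7.36 at 24 h and 7.56, 7.64 and 7.54 at 48 h, against 8.62, 8.49 and 8.70 with DMSO (-1.09 and -1.02, adjusted p 4.5e-07 and 1.2e-06). Treated and DMSO arrays did not overlap in either line.

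EIF3B, the scaffold of the module it forms with EIF3G and EIF3I, had 11.74, 11.74 and 11.75 in EBC-1 at 24 h and 11.80, 11.85 and 11.82 at 48 h, against 12.43, 12.40 and 12.35 with DMSO. In MKN-45 EIF3B had 11.09, 11.17 and 11.21 at 24 h and 11.28, 11.30 and 11.15 at 48 h, against 11.62, 11.66 and 11.65 with DMSO. It was lower by 0.65 and 0.57 in EBC-1 and by 0.49 and 0.40 in MKN-45, with adjusted p of at most 1.8e-05, and all 7 of its probe sets were lower. EIF3I fell by 0.64 and 0.63 in EBC-1 and by 0.35 and 0.62 in MKN-45. The PCI and MPN subunits, which form the body of the complex, did not move together. EIF3K, a PCI subunit, fell by 0.30 and 0.45 in EBC-1. On their brightest probe sets EIF3K was not called in MKN-45, and EIF3A and EIF3M were not called in either line. A dimmer probe set of EIF3K was called in MKN-45, at 0.14 at 24 h and -0.11 at 48 h. A dimmer one of EIF3M was called lower in EBC-1 (-0.67 and -0.71) and in MKN-45 at 24 h (-0.57). EIF3L rose by 0.65 and 0.63 in EBC-1 and by 0.55 and 0.32 in MKN-45, and EIF3H rose at 24 h by 0.49 in EBC-1 and 0.44 in MKN-45.

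EIF3F, an MPN subunit whose promoter is printed above, had 12.20, 12.20 and 12.18 in EBC-1 at 24 h and 12.14, 12.23 and 12.22 at 48 h, against 11.52, 11.45 and 11.45 with DMSO (0.72 at both times, adjusted p 3.0e-12 and 2.4e-12). In MKN-45 EIF3F had 12.20, 12.27 and 12.26 at 24 h and 12.06, 12.07 and 11.90 at 48 h, against 11.64, 11.63 and 11.52 with DMSO (0.65 and 0.41, adjusted p 2.3e-11 and 6.8e-08). Every treated array was above every DMSO array. EIF3C had no single-gene probe set. The brightest of those it shares with its near copy EIF3CL was at -0.081 and -0.084 in EBC-1, not called, and fell by 0.35 and 0.77 in MKN-45. Dimmer shared probe sets were called lower in EBC-1 too, down to -0.62 at 24 h and -0.85 at 48 h.

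Among the start codon factors, the close relatives EIF1 and EIF1B rose and EIF1AX fell. EIF1B had 9.57, 9.59 and 9.64 in EBC-1 at 24 h and 9.79, 9.75 and 9.70 at 48 h, against 9.06, 9.04 and 9.05 with DMSO (0.55 and 0.70, adjusted p 2.1e-04 and 1.1e-05). In MKN-45 EIF1B had 10.09, 10.06 and 10.06 at 24 h and 10.06, 9.98 and 10.11 at 48 h, against 9.29, 9.22 and 9.27 with DMSO (0.81 and 0.79, adjusted p 1.5e-06 and 2.1e-06). EIF1 rose by 0.23 and 0.19 in EBC-1 and by 0.37 and 0.23 in MKN-45. EIF1AX, which with EIF1 holds the scanning ribosome open, had 8.98, 8.99 and 9.03 in EBC-1 at 24 h and 8.96, 8.96 and 8.94 at 48 h, against 9.60, 9.57 and 9.71 with DMSO. In MKN-45 EIF1AX had 9.45, 9.26 and 9.25 at 24 h and 9.33, 9.32 and 9.55 at 48 h, against 9.93, 9.92 and 9.98 with DMSO. It was lower on every treated array, by 0.62 and 0.67 in EBC-1 and by 0.62 and 0.54 in MKN-45, with adjusted p of at most 1.4e-04.

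The factors of subunit joining were lower, and so was EIF5A. EIF6, which keeps free large subunits from joining too early, had 9.38, 9.31 and 9.41 in EBC-1 at 24 h and 9.57, 9.52 and 9.55 at 48 h, against 10.06, 10.10 and 10.10 with DMSO (-0.72 and -0.54, adjusted p 4.6e-08 and 3.7e-06). In MKN-45 EIF6 had 9.87, 9.92 and 9.91 at 24 h and 9.79, 9.80 and 9.86 at 48 h, against 10.08, 10.17 and 10.06 with DMSO (-0.20 and -0.29, adjusted p 0.037 and 0.0040). The 24 h call of EIF6 in MKN-45 was lost under quantile normalization (adjusted p 0.10), with no intensity trend (0.053), and without any one of MKN-45 DMSO replicates 1 and 2 and the 3 SGX-523 24 h arrays (0.057 to 0.13). EIF5B, the GTPase that joins the subunits, fell by 0.75 and 0.81 in EBC-1 and by 0.53 in MKN-45 at 24 h, and was not called in MKN-45 at 48 h (-0.096), where some of its other probe sets were called lower (-0.37 and -0.61). EIF5, which makes EIF2 hydrolyse its GTP, fell by 0.12 and 0.13 in EBC-1 and by 0.59 and 0.23 in MKN-45, while 1 of its 7 probe sets was called higher in EBC-1 at 24 h (0.48) and in MKN-45 at 48 h (0.73).

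EIF5A had 8.74, 8.87 and 8.85 in EBC-1 at 24 h and 8.89, 8.93 and 8.77 at 48 h, against 10.03, 10.08 and 10.13 with DMSO. In MKN-45 EIF5A had 9.36, 9.48 and 9.47 at 24 h and 9.62, 9.72 and 9.64 at 48 h, against 10.56, 10.52 and 10.57 with DMSO. The groups stood well apart, at 0.418 and 0.431 times DMSO in EBC-1 and 0.462 and 0.538 times in MKN-45, with adjusted p of at most 4.8e-13, and all 5 of its probe sets were lower. EIF5A2, its tissue-restricted paralog, had 6.33, 6.54 and 6.76 in EBC-1 at 24 h and 6.39, 6.38 and 6.61 at 48 h, against 7.08, 7.20 and 7.20 with DMSO (-0.62 and -0.70, adjusted p 0.0012 and 3.1e-04). In MKN-45 EIF5A2 had 4.80, 5.17 and 4.83 at 24 h and 5.61, 5.23 and 5.59 at 48 h, near the array median, against 5.98, 5.61 and 5.80 with DMSO. EIF5A2 fell by 0.86 at 24 h (adjusted p 3.1e-05), while its -0.32 at 48 h was not called (adjusted p 0.079). Its probe set with a mean of 5.13 was not called in either line (-0.22 and -0.21 in EBC-1). That with a mean of 4.80 was called lower in EBC-1 (-0.59 and -0.57) and in MKN-45 at 24 h (-0.39).

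Paralogs were also compared within arrays, in 7 pairs and all 6 comparisons with DMSO (42 tests), where no exact p can go below 0.1 and the smallest Benjamini-Hochberg adjusted value was 0.135. The change in EIF4EBP2 minus EIF4EBP1 against DMSO was 3.17 and 3.25 in EBC-1 and 1.57 and 1.36 in MKN-45, each with an exact two-sided permutation p of 0.1. That of EIF4A2 minus EIF4A1 was 2.12 and 1.75 in EBC-1 and 1.00 and 0.25 in MKN-45, also at an exact p of 0.1. For EIF5A2 minus EIF5A it was 0.64 and 0.51 in EBC-1 (exact p 0.1) and 0.25 and 0.58 in MKN-45 (exact p 0.2 and 0.1). For EIF4E2 minus EIF4E it was between 1.00 and 1.07 in all 4 comparisons of EBC-1 and MKN-45 (exact p 0.1). The same exact p of 0.1 was reached by these pairs in HCC827 at 48 h, with smaller changes for most. They were 0.089 for EIF4EBP2 minus EIF4EBP1, 0.17 for EIF4A2 minus EIF4A1, -0.43 for EIF5A2 minus EIF5A and 0.29 for EIF4E2 minus EIF4E. In HCC827 at 24 h their exact p ran from 0.2 to 0.6.

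HCC827 changed little. At 24 h, 0 of the 48 members were called in either direction by limma (9 at an unadjusted p under 0.05), where 0.0323% of all genes were called, and the median member difference was -0.050. The count was also 0 without replicate 3 of that group, against 0.161% of all genes. It was 7 without replicate 1 and 14 without replicate 2, for which the share of all genes is not given here. At 48 h, 12 members were lower and 5 higher, against 10.7% and 11.6% of all genes, with a median of -0.13 beside 0.0069 over all genes. None of these reached 2-fold. Without replicate 3 of the 24 h group, which enters the shared spread, 22 were lower and 6 higher at 48 h, and 37.5% of all genes were called either way, against 22.2% with it. The 17 called at 48 h became 10 or 11 without DMSO replicate 1 or 3 or any one SGX-523 48 h array.

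The HCC827 members with the largest falls at 48 h also fell in EBC-1. EIF3J had 8.97, 9.003 and 8.81 at 48 h, against 9.56, 9.56 and 9.59 with DMSO (-0.64, SE 0.15, adjusted p 0.0022). EIF2S1 had 10.70, 10.68 and 10.62 there, against 11.02, 11.03 and 11.04 with DMSO (-0.36, SE 0.063, adjusted p 1.7e-04). EIF2B3 had 9.80, 9.77 and 9.76, against 10.18, 10.07 and 10.07 with DMSO (-0.33, SE 0.059, adjusted p 1.9e-04). EIF5A2 had 5.80, 5.56 and 5.72, against 6.12, 6.33 and 6.30 with DMSO (-0.55, SE 0.15, adjusted p 0.011). In these 4 the arrays did not overlap. The treated arrays of EIF5A2 lay near the HCC827 array median (5.71 to 5.73), and its other probe sets were not called there (-0.23 and -0.18). EIF4E had 10.14, 10.15 and 10.19 at 48 h, against 10.39, 10.36 and 10.49 with DMSO, a difference of -0.25 that was not called with all arrays (adjusted p 0.22) and was called without replicate 3 of the 24 h group (adjusted p 0.0041). EIF4EBP1 had 10.98, 11.003 and 10.93 at 48 h, against 11.12, 11.11 and 10.98 with DMSO, a difference of -0.10 (adjusted p 0.60). EIF4EBP2 had 8.22, 8.15 and 8.20 at 48 h, within the DMSO range of 8.12 to 8.26. On their brightest probe sets EIF4A2 rose by 0.46 (adjusted p 0.032) and EIF2AK3 by 0.25 (adjusted p 0.044). Their other single-gene probe sets were not called at 48 h (-0.24 and 0.12 for EIF4A2, 0.10 and 0.11 for EIF2AK3). Of those EIF4A2 shares with SNORA63 or SNORA4, the SNORA63 probe set with a mean of 6.44 was called lower (-0.68), and the others were not called.

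At 24 h in HCC827 replicate 3 was far from its pair. EIF4E had 10.30, 10.49 and 9.56, EIF4G1 10.29, 10.16 and 11.18, and EIF4A2 11.21, 11.20 and 10.14, where the third value is replicate 3 in each. EIF4EBP1 had 10.96, 11.003 and 11.57 on the same arrays. On this array the ACTB 3′ to 5′ log2 ratio was 3.40, against 2.24 as the lowest of its group. The GAPDH ratio was 0.16 on it, between its pair at 0.18 and 0.15. Whether RNA quality set the member values was not tested.

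**Figure D4:**
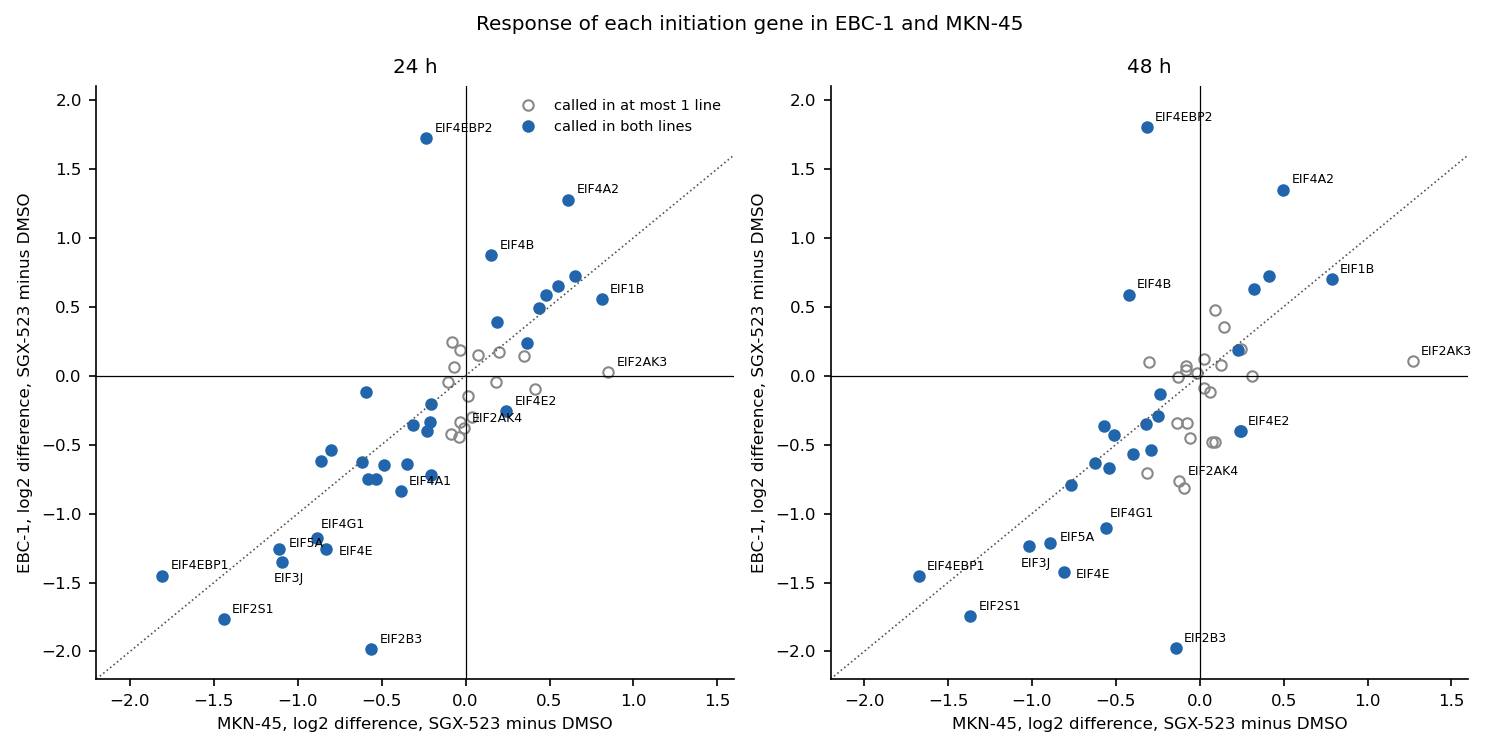
Log2 difference from DMSO of the 48 members in EBC-1 (vertical axis) against MKN-45 (horizontal axis) at 24 h and at 48 h, filled where called in both lines and open otherwise, with a dotted line where both are equal. EIF4EBP2 lies at the top left of both panels, EIF2AK3 at the right near 0 on the vertical axis, and EIF2S1, EIF4EBP1 and EIF5A at the lower left.

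The responses of the lines were set against each other by testing the difference itself. EBC-1 and HCC827 differed in 36 of 48 members at 24 h and 33 at 48 h, against 51.6% and 48.7% of all genes. MKN-45 and HCC827 differed in 32 and 22, against 52.7% and 51.1% of all genes, so that the 48 h share was near that of all genes. EBC-1 and MKN-45 differed in 19 members at 24 h, 12 of them lower and 7 higher in EBC-1, against 42.1% of all genes (23.8% lower and 18.4% higher). Without HCC827 SGX-523 24 h replicate 3, which enters the shared spread, the 24 h count was 33, against 54.3% of all genes. At 48 h they differed in 21, 14 lower and 7 higher, against 49% of all genes (29.4% and 19.6%). With all arrays, both counts lay below the share of all genes. Without that HCC827 array the 48 h count was 30, against 60.9% of all genes, and neither count lay below the share. Called in opposite directions in EBC-1 and MKN-45, on their brightest probe sets, were EIF4E2 and EIF4EBP2 at 24 h. At 48 h they were EIF4A1, EIF4B, EIF4E2 and EIF4EBP2. Of all genes, 5.06% and 6.88% were so called. The falls of EIF2B3 and EIF2S1 were both deeper in EBC-1 than in MKN-45, by 1.42 and 1.84 for EIF2B3 (SE 0.083) and by 0.32 and 0.38 for EIF2S1 (SE 0.089, adjusted p 0.0046 and 0.0010). For EIF4E the difference was -0.43 at 24 h, not called (adjusted p 0.087), and -0.61 at 48 h, called (adjusted p 0.012).

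Between 48 h and 24 h of SGX-523, MKN-45 moved more than EBC-1 in count, though this difference was not tested. In EBC-1, 7 members were lower and 1 higher at 48 h than at 24 h, against 6.09% and 4.99% of all genes. EIF2AK4 averaged 6.99 at 48 h and 7.38 at 24 h (-0.39, adjusted p 0.029), and EIF4A1 6.04 at 48 h and 5.61 at 24 h (0.43, adjusted p 0.0028). In MKN-45, 8 were lower and 10 higher, against 9.34% and 14.9% of all genes. EIF4B averaged 10.36 at 48 h and 10.94 at 24 h (-0.58, adjusted p 5.0e-09), and EIF2A 10.50 and 10.99 (-0.49, adjusted p 1.8e-07). Several members that had fallen at 24 h were nearer to DMSO at 48 h in MKN-45: EIF2B3 averaged 9.11 at 48 h and 8.69 at 24 h (0.42, adjusted p 8.0e-06), EIF5B 9.89 and 9.45 (0.44, adjusted p 0.0011), and EIF5 10.86 and 10.50 (0.36, adjusted p 5.3e-07). EIF2AK3 went on upward there, at 9.39 at 48 h and 8.97 at 24 h (0.42, adjusted p 9.0e-04). In HCC827, 13 were lower and 6 higher, against 10.7% and 15.8% of all genes, in a comparison that includes the array that stood apart. Without that array the counts were 14 in EBC-1, 30 in MKN-45 and 22 in HCC827, against 24%, 39.7% and 28.8% of all genes. In EBC-1 the count was 5 without SGX-523 24 h replicate 3 or SGX-523 48 h replicate 1 or 2.

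With DMSO alone, 19 members were lower and 17 higher in EBC-1 than in MKN-45, against 34% and 33.6% of all genes. EIF4E3 averaged 2.86 in EBC-1 and 7.86 in MKN-45, the widest gap of all members (-5.00). Its EBC-1 level lies under the array median, so the size of the gap is uncertain. EIF4E3 passed the signal filter only through arrays outside EBC-1, so its gap is a description and not a test. EIF5A2 averaged 7.16 in EBC-1 and 5.79 in MKN-45 (1.37, adjusted p 2.0e-08), EIF2B1 10.4 and 9.25 (1.18, adjusted p 4.2e-16), and EIF2AK2 8.30 and 7.29 (1.01, adjusted p 1.9e-10). Going the other way were EIF3I at 9.88 in EBC-1 and 10.9 in MKN-45 (-1.03, adjusted p 5.8e-16) and EIF4B at 9.79 and 10.8 (-0.99, adjusted p 4.1e-15).

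Other parts of the translation machinery were counted for comparison, beside the shares of all genes called lower and higher, which were 28.1% and 31.2% in EBC-1 at 24 h, 28.9% and 32.8% at 48 h, and 26.9% and 33.4%, then 26.2% and 36.4%, in MKN-45. Cytosolic aminoacyl-tRNA synthetases, which load tRNAs, were mostly lower: 15 of 19 (78.9%) in EBC-1 at 24 h (median -0.79), 17 (89.5%) at 48 h (-0.75), and 14 (73.7%) and 12 (63.2%) in MKN-45 (-0.56 and -0.42). FARSB fell by 1.79 and IARS1 by 1.46 in EBC-1 at 24 h. Cytosolic ribosomal proteins had medians near 0. In EBC-1, 7 of 64 were lower and 25 higher at 24 h (median 0.052), and 20 lower and 16 higher at 48 h (-0.0085). In MKN-45, 3 were lower and 27 higher at 24 h (0.050), and 6 and 20 at 48 h (0.043). Elongation and release factors had 4 lower and 4 higher of 14 in EBC-1 at 24 h, or 28.6% each, near the shares of all genes. Accessory initiation factors had 9 lower and 4 higher of 17 there, and 7 and 5 in MKN-45. Among them ABCE1, which recycles ribosomes, fell by 1.54 and 1.67 in EBC-1 and by 1.09 and 1.10 in MKN-45. PDCD4, an inhibitor of the EIF4A helicase, rose by 2.35 and 2.27 in EBC-1 and by 1.75 and 1.92 in MKN-45, and by 0.79 in HCC827 at 48 h.

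Some regulators upstream of the EIF4EBP repressors were called in opposite directions in the MET-addicted lines. Of 19 tested genes of mTORC1 and MNK control, 5 were lower and 10 higher in EBC-1 at each time, and 7 and 8, then 6 and 9, in MKN-45. The shares called lower, 26.3% in EBC-1 and 36.8% and 31.6% in MKN-45, were near those of all genes in EBC-1 (28.1% and 28.9%) and somewhat above them in MKN-45 (26.9% and 26.2%), and the shares called higher were 52.6% in EBC-1 and 42.1% and 47.4% in MKN-45, against 31.2% and 32.8%, then 33.4% and 36.4%, of all genes. DEPTOR, an inhibitor of mTOR, fell by 1.03 and 1.22 in EBC-1 and rose by 2.79 and 3.20 in MKN-45. DDIT4, another inhibitor of the pathway, differed from DMSO by 0.44 and 0.35 in EBC-1 and by -2.01 and -2.50 in MKN-45, all called. TSC1, SESN1 and SESN2, further inhibitors, rose in both, with TSC1 at 1.43 and 1.51 in EBC-1 and 1.04 and 1.36 in MKN-45.

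Genes that report EIF2 phosphorylation did not move one way. Of 9, 2 were lower and 4 higher in EBC-1 at each time, and 2 and 3, then 3 and 5, in MKN-45. That is 22.2% lower and 44.4% higher in EBC-1, against 28.1% to 28.9% and 31.2% to 32.8% of all genes, and 22.2% and 33.3%, then 33.3% and 55.6%, in MKN-45, against 26.9% and 33.4%, then 26.2% and 36.4%. ASNS and TRIB3, targets of the stress factor ATF4, fell by 1.24 and 1.49 in EBC-1 at 24 h and by 0.54 and 0.57 in MKN-45. DDIT3 rose by 0.90 and 0.77 in EBC-1 and by 0.42 and 0.52 in MKN-45, and NUPR1 by 0.82 at both times in EBC-1 and by 5.79 and 5.01 in MKN-45.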

How the data were processed

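Per the labels' protocols, TRIZOL-extracted RNA was column-purified and labelled from the 3′ end of transcripts. The authors deposited 1 log2 signal per probe set and array, from 1.87 to 14.4. The submitters' processing notes name MAS5 without saying for which step, and the normalization is not given in the sources consulted here. Of 49395 probe sets, 102 were controls, 44994 had 1 gene symbol and 1832 several, which were left out of the members. Symbols were updated by Entrez ID for 44967 probe sets. A probe set was kept at or above the array median on at least 3 arrays, and the brightest kept one stood for its gene. Each gene was tested by limma 3.58.1 under R 4.3.3 (9 group means, 18 residual degrees of freedom, eBayes with an intensity trend), with Benjamini-Hochberg adjustment within each comparison over 12386 genes and a threshold of 0.05. The test was checked on simulated data.

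The text gives array values for a panel of members and for the 4 members with the largest rise and fall per comparison of EBC-1 or MKN-45 with DMSO, among those called with groups that did not overlap. Members, lists and rules were chosen with earlier results of these data known. Alternatives were quantile normalization, median centring, no filter, a filter at percentile 75, a pseudocount of 64 on the linear scale, the mean of a gene's probe sets, no trend, a fit per line, a replicate block, and leaving out each array. Paralogs were compared by exact permutation. Promoter windows are RefSeq's (GRCh38.p14). Protein identity between paralogs was not analysed here.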

Additional observations from a re-analysis of the deposited data

Results flagged for a closer look

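Responses were compared between lines by limma's test of the difference itself, and members with a called difference were counted. Between EBC-1 and HCC827 there were 36 such members at 24 h and 33 at 48 h. Between MKN-45 and HCC827 there were 32 at 24 h and 22 at 48 h, and between EBC-1 and MKN-45 there were 19 at 24 h and 21 at 48 h. These are set against 51.6%, 48.7%, 52.7%, 51.1%, 42.1% and 49% of all genes in the same order. With all arrays, the counts for MKN-45 and HCC827 at 48 h and for EBC-1 and MKN-45 at both times, out of 48 members, lay below the share of all genes. Without HCC827 SGX-523 24 h replicate 3 those counts were 32, 33 and 30, against 62.1%, 54.3% and 60.9% of all genes, and none lay below.

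Some members were called in opposite directions in EBC-1 and MKN-45, with a called difference. The response of EBC-1 minus that of MKN-45 was -0.50 at 24 h and -0.64 at 48 h for EIF4E2. It was 1.96 and 2.12 for EIF4EBP2, whose probe sets disagreed in MKN-45. At 48 h it was -0.65 for EIF4A1 and 1.01 for EIF4B, and the probe sets of each disagreed in MKN-45.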

How the results depend on the processing

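Counts of called members in EBC-1, MKN-45 and both together stayed within 1.5 times under every alternative, while HCC827 and the time comparisons moved. At 48 h in HCC827, 3 members were higher with no filter and 3 with the mean of probe sets, and a separate fit per line called 5, all 5 lower and 0 higher. For 48 h against 24 h, the mean of probe sets called 5 in EBC-1, and the separate fit 13 in EBC-1 and 6 in HCC827. EIF4A2 in MKN-45 at 48 h turned to -0.0040 with the mean of probe sets. The causes were not tested. Leaving out single arrays, the counts ran from 38 to 43 and 35 to 39 in EBC-1, from 31 to 39 and 27 to 33 in MKN-45, and from 0 to 14 (lower 0 to 13, higher 0 to 1) and 10 to 28 (lower 9 to 22, higher 0 to 6) in HCC827, at 24 h and 48 h. For 48 h against 24 h they ran from 5 to 14 in EBC-1, 14 to 30 in MKN-45 and 13 to 22 in HCC827, and for EBC-1 minus MKN-45 at 24 h from 17 to 33. HCC827 SGX-523 24 h replicate 3 gave the highest of these in EBC-1 minus MKN-45 (33), in HCC827 at 48 h (28) and in the time comparisons (14 in EBC-1, 30 in MKN-45). Calls over all genes also rose without that array, to 54.3%, 37.5%, 24% and 39.7% in the same order. The lowest EBC-1 count, 5, came without SGX-523 24 h replicate 3 or without SGX-523 48 h replicate 1 or 2. HCC827 at 48 h had 10 without DMSO replicate 3 or SGX-523 48 h replicate 3, and 11 without DMSO replicate 1 or SGX-523 48 h replicate 1 or 2. HCC827 at 24 h had 7 without its replicate 1 and 14 without its replicate 2. Same-numbered arrays deviated together little if at all (correlations from -0.20 to 0.16). No pairing by number was evident, though such correlations cannot exclude it. With the replicate block 40 and 35 members were called in EBC-1, 36 and 29 in MKN-45 and 0 and 14 in HCC827, while EIF2B3 in MKN-45 at 48 h lost its call (adjusted p 0.067). Of the named members' values under other alternatives, 1095 kept direction and call, 27 lost the call, 5 gained one and 1 turned. Signal near or under the array median limits EIF4E3 in EBC-1, EIF5A2 in MKN-45 and HCC827, and EIF4A1.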
